A study of Mus musculus with 4 samples.

Results

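The 10 genes described here belong to the growth hormone and insulin-like growth factor (IGF) axis of the liver: Ghr, Igf1, Igfals, Igfbp1, Igfbp2, Igfbp4, Stat5b, Socs2, Insr and Irs2. They were taken by their gene symbol from tables of 33924 symbols. Counts of reads from capped 5'-ends of liver RNA were available for 4 ages of mice, namely 3, 9, 15 and 21 months. Each age was represented by 1 library, a pool of equal amounts of RNA (1 μg per mouse) from 24 mice of the C57BL6 strain (male C57BL/6Rj animals per the methods), with 4 mice at each of 6 times of the day. The label of the 3 month sample calls it young, and the 4 libraries carried different bar codes and shared 1 sequencing lane. Because the mice of an age were pooled before sequencing, no spread between animals was measured. Every interval and the chi-square test below cover counting error only. The fits of a trend over age also estimate a spread, from these 4 libraries alone. In whole liver, moreover, fewer cells of a type and less RNA per cell cannot be told apart.

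Growth hormone from the pituitary binds its receptor on hepatocytes, and the kinase bound to that receptor activates the transcription factor encoded by Stat5b. Known targets of this pathway in liver are Igf1, which encodes the main circulating growth factor of the axis, Igfals, which encodes the acid-labile subunit that keeps IGF in the blood, and Socs2, which encodes a feedback inhibitor of the receptor. The binding proteins encoded by Igfbp1, Igfbp2 and Igfbp4 hold IGF in smaller complexes, and insulin, acting through the products of Insr and Irs2, represses Igfbp1 in liver. In males, pulsatile growth hormone also sustains a set of male-biased liver genes.

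Of the 4 genes that encode the acid-labile subunit and the binding proteins, Igfals and Igfbp1 were lowest at 21 months and Igfbp2 and Igfbp4 were not, and the 250 bases upstream of a start of each are shown to set these genes side by side. The sequences come from the promoter table of RefSeq (build GRCm38.p6), which held 13 windows for 8 of the 10 genes, Socs2 and Insr being the others. All 13 windows were found at 1 exact position in NCBIM37, the build of the counts (mm9), and the coordinates are those of that build, on the plus strand for these 4 genes. Capitals mark matches on either strand to 4 sets of letters: TTCNNNGAA, as bound by STAT5, GTAAACA, as bound by FOXO factors, CAAAACA of insulin response elements, and TATAAA of the TATA box.
Igfbp1, chr11:7097540-7097789: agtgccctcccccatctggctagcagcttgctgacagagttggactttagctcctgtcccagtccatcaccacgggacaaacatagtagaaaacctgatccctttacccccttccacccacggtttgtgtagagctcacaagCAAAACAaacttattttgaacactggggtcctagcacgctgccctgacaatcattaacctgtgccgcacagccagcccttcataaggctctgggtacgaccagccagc
Igfals, chr17:25014926-25015175: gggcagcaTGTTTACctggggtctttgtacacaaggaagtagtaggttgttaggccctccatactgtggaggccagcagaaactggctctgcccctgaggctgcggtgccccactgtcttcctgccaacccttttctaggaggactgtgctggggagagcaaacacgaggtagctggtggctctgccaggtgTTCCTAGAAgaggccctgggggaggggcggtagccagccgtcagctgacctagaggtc
Igfbp2, chr1:72870804-72871053: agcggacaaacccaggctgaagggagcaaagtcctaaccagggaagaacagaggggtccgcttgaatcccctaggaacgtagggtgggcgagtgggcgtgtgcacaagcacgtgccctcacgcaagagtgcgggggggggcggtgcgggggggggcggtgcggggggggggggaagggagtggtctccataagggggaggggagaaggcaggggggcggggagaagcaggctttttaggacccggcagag
Igfbp4, chr11:98902308-98902557: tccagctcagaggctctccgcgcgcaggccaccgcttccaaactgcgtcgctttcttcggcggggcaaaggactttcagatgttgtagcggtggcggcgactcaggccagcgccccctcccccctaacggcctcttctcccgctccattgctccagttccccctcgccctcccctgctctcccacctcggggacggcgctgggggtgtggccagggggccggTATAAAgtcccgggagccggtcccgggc
The Igfbp1 window held CAAAACA, 108 bases before the start, and its last 5 bases lay in an annotated exon. In the Igfals window, TGTTTAC (the reverse of the FOXO letters) lay 242 bases and TTCCTAGAA 58 bases before the start. This window lay within the annotated span of Igfals (chr17:25014600-25018955), outside its annotated exons. The Igfbp4 window held TATAAA 28 bases before the start, and the Igfbp2 window held no match. Among the other windows, TTCTCAGAA stood at 236 bases in a second window of Igfals (chr17:25014539-25014788), TTTATA at 188 bases in a window of Ghr (chr15:3531843-3532092) and TGTTTTG at 37 bases in that of Irs2 (chr8:11008930-11009179). The remaining windows held no match, among them a further window of Igfals (chr17:25015442-25015691) and a further window of Igfbp2 (chr1:72871711-72871960). Of 32851 windows of this length, 7.02% held the STAT5 letters, 3.166% the FOXO letters, 5.561% the insulin response letters and 12.37% the TATA letters. A match describes the letters only.

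The libraries summed to between 525772 counts on genes (15 months) and 958586 (9 months), and 6.67% to 8.42% of the records of a library were counted on a gene. To compare libraries of unequal depth, counts were divided by the geometric mean of the library over 8704 genes that were counted in all 4 libraries, the scale of the centred log-ratio (clr), and are called normalised counts. The 8 hepatocyte markers, with albumin (Alb) as the most counted, summed to 72409, 79579, 65990 and 78495 normalised counts at 3, 9, 15 and 21 months. The summed normalised counts of markers of other liver cells ranged from 674 to 880 for Kupffer cells (10 of 10 markers above 0 in every library, led by Cd5l), from 593 to 693 for sinusoidal endothelium (8 of 8, led by Oit3) and from 473 to 777 for stellate cells and fibroblasts (8 of 8, led by Ecm1). The sum for stellate cells was lowest at 3 months, and that for Kupffer cells was lowest at 3 and highest at 21 months. Single Kupffer cell markers did not share 1 course, with 21 over 3 month ratios from 0.924 (Csf1r) to 3.79 (Marco). Markers of cholangiocytes (led by Spp1) summed to between 13.5 and 30.2 normalised counts with Epcam at 0, and those of B, plasma and T cells (led by Igj) to between 3.3 at 3 months and 18.8 at 21 months with Ms4a1 and Trbc2 at 0. The part of these cells in the results below was not tested.

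All 10 genes had a count above 0 in every library. A chi-square test of the 4 counts (3 degrees of freedom, adjusted over 8704 genes) found differences beyond counting noise for 8 of them, the exceptions being Socs2 and Insr, against 25.3% of all genes tested. Since the test detects smaller differences in deeper genes, the share among genes with at least 100 counts in all is the closer reference for deep genes. It was 44.4%. Of the 10 genes, 7 had at least 100 counts in all, and all of these but Insr passed. This test compares 4 libraries, not 4 ages. A linear trend over age, fitted to all genes with edgeR's quasi-likelihood test, passed for 0 of the 10 genes (6 of 5569 genes, or 0.108%, passed in either direction, 0.0539% in each), with adjusted p between 0.945 and 0.997. Under an unadjusted p of 0.05 stood 1 of the 10 (Igfbp1), compared with 5.21% of the genes tested, and DESeq2 called 0 genes of any kind, with 130 under an unadjusted p of 0.05. The 4 libraries leave 2 residual degrees of freedom per gene in the trend fit. The spread behind its p-values is therefore largely shared across the 5569 genes fitted, not measured for each gene alone.

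**Figure D1:**
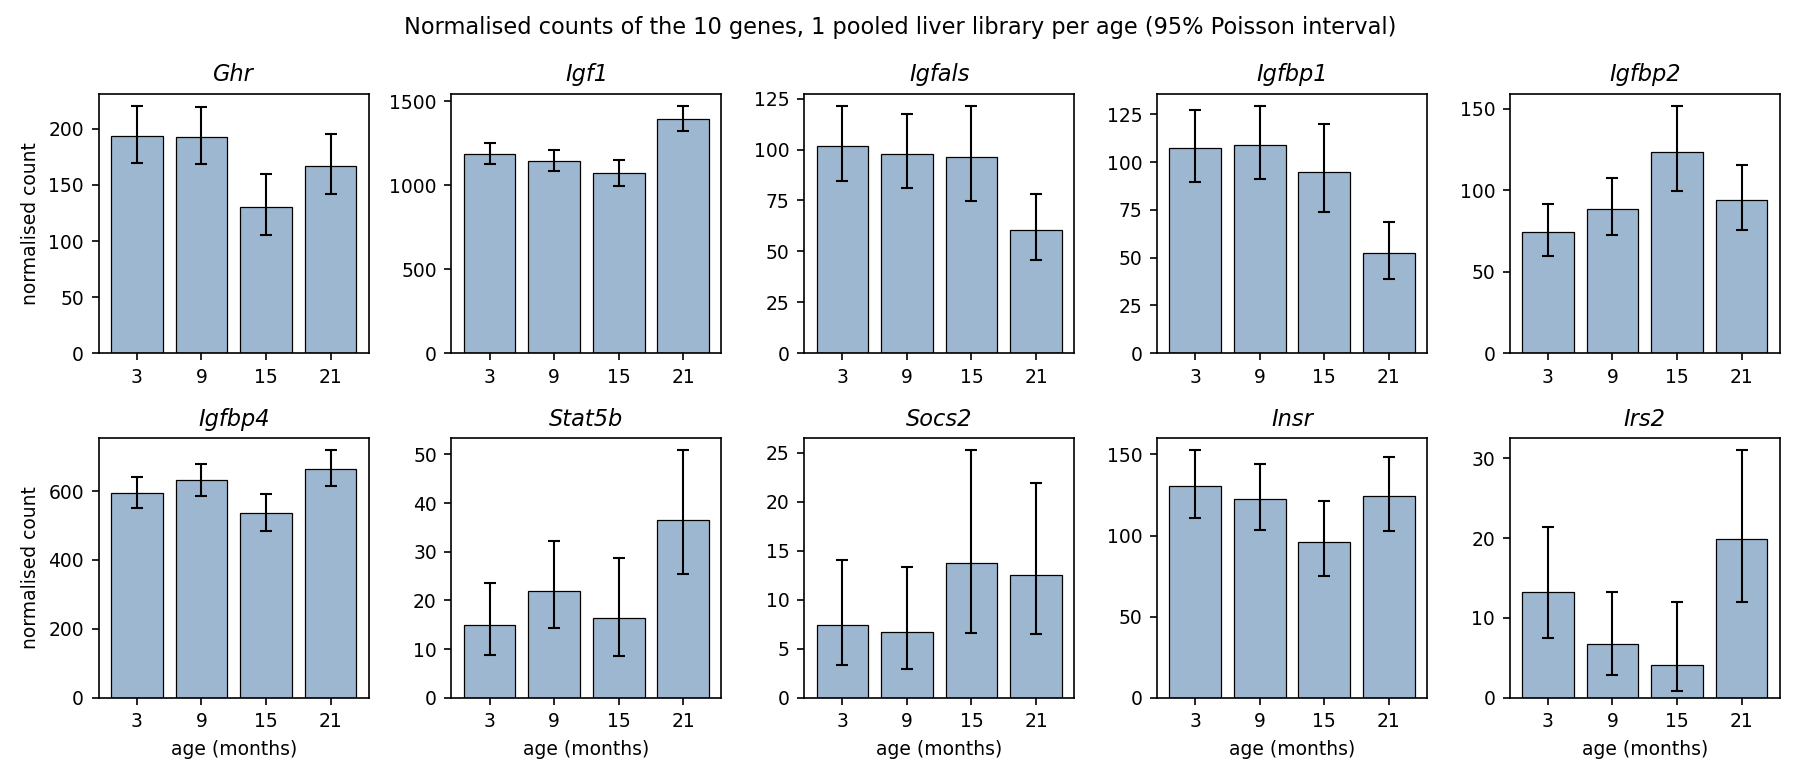
Normalised counts (vertical axes, starting at 0 and scaled for each gene) of the 10 genes against age in months, with 1 pooled library per bar and exact 95% Poisson intervals of the count as error bars. Igfals and Igfbp1 were lowest at 21 months (60.6 and 52.2), Igf1 and Stat5b were highest there (1395 and 36.5), and Igfbp2 was highest at 15 months (123.6).

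The spread of each gene over age was described by the variance of clr. The variance (natural logarithm) lay below the median of all genes (0.160) for 8 of the 10, the exceptions being Stat5b (0.162) and Irs2 (0.488), and the median of the 10 was 0.0521. This reference includes many genes with few counts. Among genes with at least 10 counts in every library, 5 of the 8 genes of the axis that remain lay below the median of 0.0568, and without the 3 month library 6 of the 10 lay below the median. The smallest values were those of Igfbp4 (0.00835, with 2.86% of genes lower), Igf1 (0.0126, with 4.86% lower) and Insr (0.0187, with 7.66% lower). Among the genes with at least 100 counts in all, Igfbp1 had the largest variance of the axis at 0.121. The variance falls with the depth of a gene, and the part expected from counting alone was 0.143 for Irs2, 0.105 for Socs2 and 0.0515 for Stat5b, but 0.000866 for Igf1. Socs2 therefore had a variance (0.129) close to its counting noise.

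**Figure D2:**
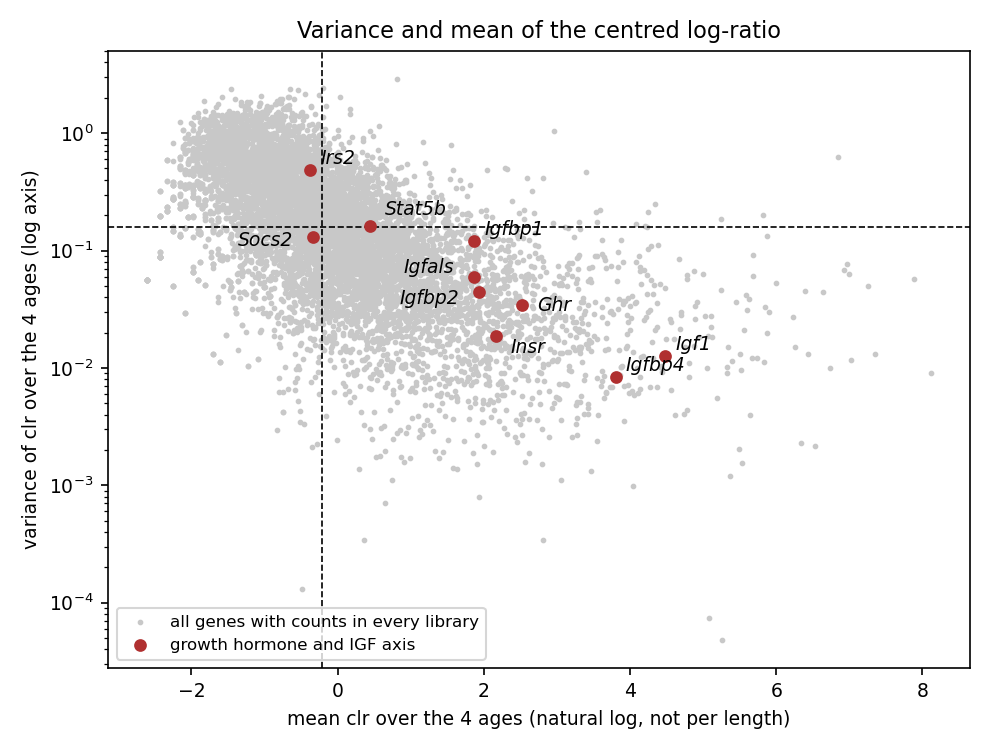
Variance of clr over the 4 ages (vertical log axis) against mean clr (horizontal axis, natural logarithm, not corrected for length) for the 8704 genes with counts in every library (grey) and the 10 genes of the axis (red), with the medians as dashed lines. Igfbp4, Igf1 and Insr lie low in the cloud, and Stat5b (0.162) and Irs2 (0.488) lie above the median variance of 0.160.

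Each later library was then set against that of 3 months. A gene was counted as higher or lower when its normalised count differed at least 1.5-fold, among 4295 genes counted in all 4 libraries and at least 20 times in 1 of them, a minimum that Socs2 and Irs2 did not reach. At 9 months, 0 of the other 8 genes were higher and 0 lower, whereas 17.4% of the 4295 genes were higher and 20.1% lower. At 15 months only Igfbp2 was higher (14.1% of all genes) and 0 were lower (26.8%). At 21 months Stat5b was higher (15.5%), and Igfals and Igfbp1 were lower (22.7%). The median log2 ratio of the 8 genes was 0.00, -0.15 and 0.04 at 9, 15 and 21 months, and that of the 4295 genes was -0.04, -0.16 and -0.07, so that a log2 ratio at 15 months has to be read against a shift of all genes of -0.16 on this scale. The 3 comparisons share the library of 3 months.

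**Figure D3:**
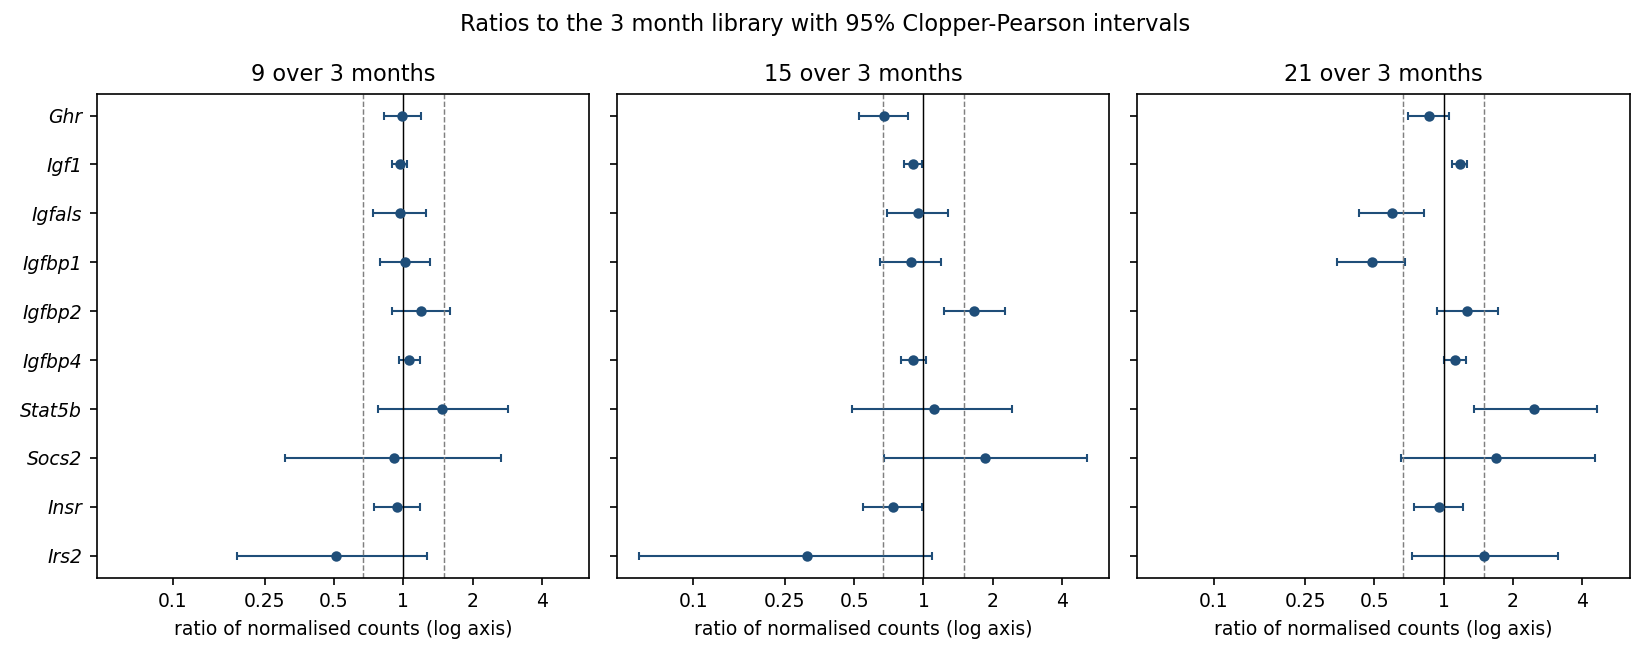
Ratios of normalised counts at 9, 15 and 21 months over 3 months (horizontal log axes) for the 10 genes, as points with exact 95% Clopper-Pearson intervals, with 1.5-fold marked by dashed lines. All 9 month intervals include 1, and at 21 months those of Igfbp1 (0.486) and Igfals (0.596) lie wholly below it.

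Igf1 (ENSMUSG00000020053.11, protein-coding, plus strand, chr10:87321010-87399792) held 1436, 1358, 780 and 1336 counts in the libraries of 3, 9, 15 and 21 months. This gave normalised counts of 1186, 1147, 1071 and 1395. On this scale the ligand thus differed little over the first 3 ages, was lowest at 15 months and was highest at 21 months. The course over the first 3 ages depended on the scale. With the 7 marker genes of the study as the scale, the 9 over 3 month ratio was 0.867 (95% interval 0.805 to 0.935). With the summed hepatocyte markers it was 0.880 (0.816 to 0.948), against 0.967 (0.897 to 1.04) on the main scale. The 4 libraries differed by more than counting noise (adjusted p = 7.2e-08 in the chi-square test), which no longer held without the 21 month library (adjusted p = 0.143). The 21 month library exceeded that of 3 months 1.18-fold (95% interval 1.09 to 1.27), that of 9 months 1.22-fold (1.13 to 1.31) and that of 15 months 1.30-fold (1.19 to 1.42). At 15 months, the ratio over 3 months was 0.903 (95% interval 0.827 to 0.986). As a log2 ratio this was -0.15, about that of the median gene. The edgeR slope corresponded to a log2 change of 0.23 ± 0.325 (SE) over 18 months (adjusted p = 0.997), and it was 0.43 without the 3 month library and of the opposite sign without that of 21 months (-0.08). The span of the antisense transcript Gm16176 overlaps that of Igf1, and overlap of exons was not examined. The strand setting of the counting is not given in the sources used here. Any reads of the pair from shared bases therefore cannot be told apart.

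Igfals (ENSMUSG00000046070.7, protein-coding, plus strand, chr17:25014600-25018955) encodes the acid-labile subunit, which forms a stable complex with IGF and a binding protein in blood. It held 123, 116, 70 and 58 counts at 3, 9, 15 and 21 months, or 101.6, 98.0, 96.1 and 60.6 normalised counts. It stayed within a narrow range up to 15 months and was lowest at 21 months. The 21 over 3 month ratio was 0.596 (95% interval 0.429 to 0.821), and the ratios over 9 and 15 months were 0.618 (0.443 to 0.854) and 0.630 (0.437 to 0.905). The chi-square test passed (adjusted p = 0.0323), but not without the 21 month library (adjusted p = 0.944). Igfals was the only gene of the 10 with a lower value at every step of age, as had 4.33% of the 8704 genes, and 0 of the 10 had a higher value at every step (4.3% of all genes). This order depended on the scale: with TMM or DESeq2 scale factors, library totals, the 7 marker genes of the study or the summed hepatocyte markers, the 15 month value lay above that of 9 months (ratios over 3 months of 0.979 and 1.01 at 9 and 15 months with TMM). Its log2 change over 18 months in the edgeR fit was -0.60 ± 0.440 (SE) with an adjusted p of 0.997, but -0.9997 without the library of 3 months and 0.01 without that of 21 months.

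Igfbp1 (ENSMUSG00000020429.7, protein-coding, plus strand, chr11:7097785-7102549) encodes the binding protein that insulin represses acutely. The libraries of 3, 9, 15 and 21 months held 130, 129, 69 and 50 of its counts, and the normalised counts were 107.4, 108.9, 94.7 and 52.2. The young and middle ages lay close together, and the 21 month library stood apart at the low end. Against 3 months the ratio was 0.486 (95% interval 0.344 to 0.679), against 9 months 0.479 (0.339 to 0.669) and against 15 months 0.551 (0.375 to 0.805). The difference between the 4 libraries passed the chi-square test (adjusted p = 0.0005), and it rested on the 21 month library (adjusted p = 0.720 without it). In edgeR, the log2 change over 18 months was -0.90 ± 0.450 (SE), with an unadjusted p of 0.0485 and an adjusted p of 0.945. It was -1.54 without the 3 month library and -0.13 without that of 21 months.

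The genes with the most similar course to Igfbp1, by the distance between clr profiles over the 4 libraries among 2444 genes with at least 100 counts, were Eci2, Ythdf1 and Slc17a3. Eci2, an enoyl-CoA isomerase of fatty acid oxidation, held 79, 73, 39 and 31 counts (distance 0.0831). Ythdf1, a reader of methylated adenosine in mRNA, held 39, 41, 20 and 14 (0.0936), and Slc17a3, an organic anion transporter, held 76, 66, 37 and 26 (0.103). Their low counts at 21 months follow from the way they were chosen.

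Igfbp2 (ENSMUSG00000039323.11, protein-coding, plus strand, chr1:72871077-72899048) took another course. Its counts were 90, 105, 90 and 90 at 3, 9, 15 and 21 months, which corresponds to 74.3, 88.7, 123.6 and 94.0 normalised counts because the 15 month library was the shallowest. The 15 month value was the highest, and the 3 month value was the lowest. At 15 months, Igfbp2 was 1.66-fold above 3 months (95% interval 1.23 to 2.25) and 1.39-fold above 9 months (1.04 to 1.86), while the 21 over 3 month ratio of 1.26 had an interval including 1 (0.934 to 1.71). The counts differed in the chi-square test (adjusted p = 0.0320), and this call was lost without the library of 3 months (adjusted p = 0.199), without that of 15 months (0.440) and with a pseudocount of 1 (0.253). Over other scales, the 15 over 3 month ratio ranged from 1.43 to 1.82. The trend with age was 0.51 ± 0.437 (SE) in log2 over 18 months (edgeR, adjusted p = 0.997), but 0.14 without the 3 month library, 0.32 without that of 15 months and 1.24 without that of 21 months.

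Igfbp4 (ENSMUSG00000017493.5, protein-coding, plus strand, chr11:98902558-98913969), whose product inhibits IGF action and is cleaved to release it, had the most constant level of the 10. It held 720, 747, 391 and 636 counts, and 594.6, 630.9, 536.9 and 664.2 normalised counts, at 3, 9, 15 and 21 months. The values lay within a 1.24-fold range, lowest at 15 months and highest at 21 months. The ratio of 21 over 3 months was 1.12 (95% interval 1.002 to 1.24), that of 15 over 9 months 0.851 (0.751 to 0.963) and that of 21 over 15 months 1.24 (1.09 to 1.41). The chi-square test passed (adjusted p = 0.0312), but it no longer did with TMM scale factors (adjusted p = 0.0917), with library totals (0.113), with summed hepatocyte markers (0.766), without the 15 month library (0.300) or without that of 21 months (0.0903). In edgeR the log2 change over 18 months was 0.12 ± 0.339 (SE), with an adjusted p of 0.997, and it was -0.08 without the 21 month library.

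Relating the counts of the carriers to those of Igf1 in the same library makes Igf1 itself the scale. Igf1 was 1.18-fold higher at 21 than at 3 months (95% interval 1.09 to 1.27), and the ratios at 21 months include this difference. On the main scale, the 21 over 3 month ratios of Igfals and Igfbp1 were 0.596 and 0.486. Per 100 counts of Igf1, there were 8.57, 8.54, 8.97 and 4.34 counts of Igfals at 3, 9, 15 and 21 months. For Igfbp1 the values were 9.05, 9.50, 8.85 and 3.74. Both ratios were nearly constant over the first 3 ages, and at 21 months they were 0.507 (95% interval 0.361 to 0.705) and 0.413 (0.290 to 0.583) times those of 3 months. Igfbp2 stood at 6.27, 7.73, 11.5 and 6.74 per 100 Igf1 counts, 1.84 times its 3 month value at 15 months (1.34 to 2.53) and 1.07 times at 21 months (0.786 to 1.47). Igfbp4 gave 50.1, 55.0, 50.1 and 47.6 per 100, with a 21 over 3 month change of 0.949 (0.832 to 1.08). Igfbp2 and Igfbp1 diverged most among the pairs computed. There were 69.2 counts of Igfbp2 per 100 of Igfbp1 at 3 months, then 81.4 and 130.4, and 180 at 21 months, a 2.60-fold difference between the last and the first (1.64 to 4.13). Only the change of such a ratio over age is read here, not the level of 1 gene against another.

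**Figure D4:**
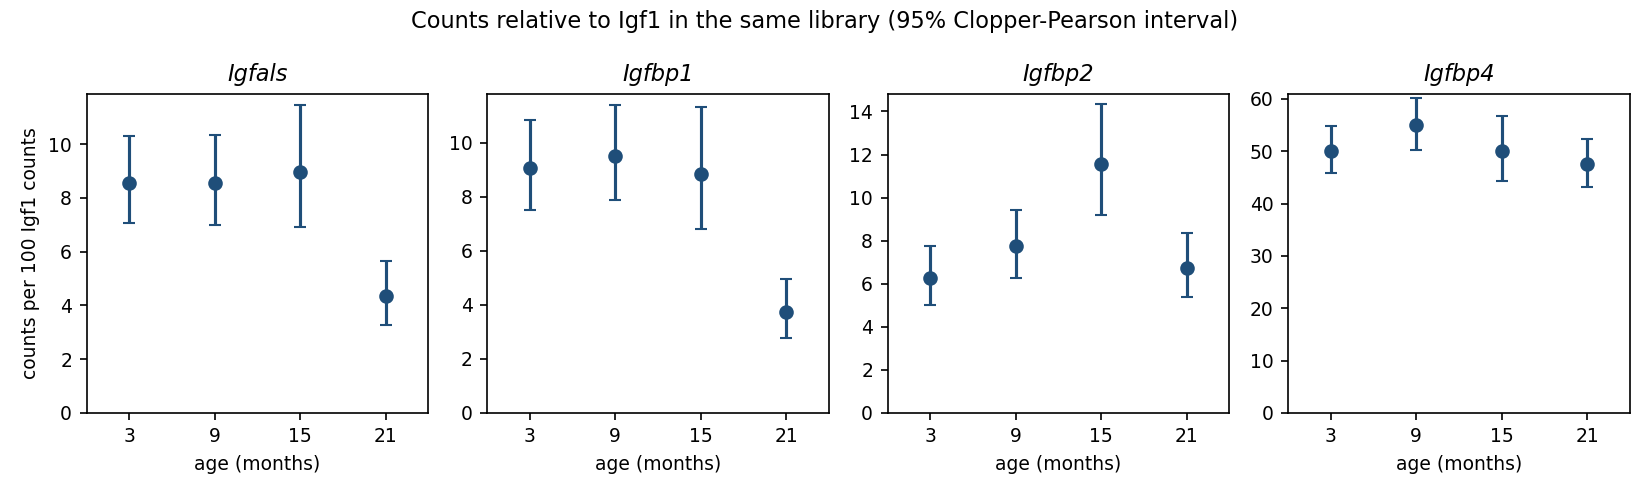
Counts of Igfals, Igfbp1, Igfbp2 and Igfbp4 per 100 counts of Igf1 in the same library (vertical axes from 0) against age in months, with 95% Clopper-Pearson intervals. Igfals and Igfbp1 lie at 4.34 and 3.74 at 21 months, below their 3 earlier values, Igfbp2 has its maximum of 11.5 at 15 months, and the intervals of Igfbp4 overlap at all ages.

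Ghr (ENSMUSG00000055737.6, protein-coding, minus strand, chr15:3267760-3533492) encodes the growth hormone receptor. Its counts were 235, 228, 95 and 160 at 3, 9, 15 and 21 months, or 194.1, 192.6, 130.4 and 167.1 normalised counts. The values at 3 and 9 months were alike, and that at 15 months was the lowest. The receptor stood at 0.672 of its 3 month value at 15 months (95% interval 0.524 to 0.856), a log2 ratio of -0.57 against -0.16 for the median gene, and at 0.861 (0.700 to 1.06) at 21 months. The 4 counts differed in the chi-square test (adjusted p = 0.0233), but this call was lost with TMM scale factors (0.0730), library totals (0.155), 7 marker genes of the study (0.184) or summed hepatocyte markers (0.0957), and without the 15 month library (0.423). Counts of Igf1 per count of Ghr were 1.34 times those of 3 months at 15 months (1.04 to 1.75) and 1.37 times at 21 months (1.10 to 1.70). The edgeR slope was -0.31 ± 0.376 (SE) in log2 over 18 months, with an adjusted p of 0.997, and -0.70 without the 21 month library.

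Stat5b (ENSMUSG00000020919.5, protein-coding, minus strand, chr11:100642045-100712038), the transcription factor downstream of the receptor, was measured with few counts. The 4 libraries held 18, 26, 12 and 35, or 14.9, 21.96, 16.5 and 36.5 normalised counts. The 21 month library was the highest, and the other 3 had intervals that overlapped each other widely. At 21 months, Stat5b was 2.46-fold above 3 months (95% interval 1.36 to 4.61) and 2.22-fold above 15 months (1.12 to 4.69), but the interval of the ratio to 9 months, 1.66, included 1 (0.974 to 2.88). The chi-square test passed (adjusted p = 0.0259), and it did not without the 21 month library (0.580), without that of 3 months (0.109) or with summed hepatocyte markers as the scale (0.0590). The log2 change over 18 months was 1.14 ± 0.645 (SE) in edgeR, with an adjusted p of 0.997, and 0.40 without the 21 month library. Of the exonic bases of Stat5b, 21.7% had a second near-identical match in the genome. Which reads were lost for that reason was not tested.

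Socs2 (ENSMUSG00000020027.11, protein-coding, minus strand, chr10:94847996-94879814), the feedback inhibitor, held 9, 8, 10 and 12 counts, which gave 7.43, 6.76, 13.7 and 12.5 normalised counts at 3, 9, 15 and 21 months. The order of these values cannot be read, because the intervals of all 6 ratios between ages included 1. The 21 over 3 month ratio was 1.69 (95% interval 0.652 to 4.53), and the chi-square test did not pass (adjusted p = 0.430). A difference of this size was not detectable at this depth. A second match existed for 14.4% of its exonic bases.

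On the insulin side, Insr (ENSMUSG00000005534.8, protein-coding, minus strand, chr8:3150922-3279617) encodes the insulin receptor. It held 158, 145, 70 and 119 counts, or 130.5, 122.5, 96.1 and 124.3 normalised counts, with the lowest value at 15 months. The ratio of 15 over 3 months was 0.737 (95% interval 0.548 to 0.982), a log2 ratio of -0.44, and its interval included 1 with TMM scale factors (0.585 to 1.05), DESeq2 size factors, library totals, the 7 marker genes of the study and the summed hepatocyte markers. The 21 over 3 month ratio was 0.952 (0.744 to 1.22), and the 4 counts passed no chi-square test (adjusted p = 0.327). Set against Ghr in the same library, Insr stood at 67.2, 63.6, 73.7 and 74.4 counts per 100 Ghr counts, and the intervals of all 3 changes over 3 months included 1. Both receptor genes had their lowest normalised count in the 15 month library, as did Igf1, Igfbp4 and Irs2. The median log2 ratio of all genes at 15 over 3 months was -0.16. The span of the transcript Gm16180 overlaps that of Insr on the other strand, and overlap of exons was not examined. Whether its reads are part of the counts of Insr is not known.

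Irs2 (ENSMUSG00000038894.6, protein-coding, minus strand, chr8:10986980-11008458), the main adaptor of the insulin receptor in liver next to Irs1, varied most and, like Socs2, rested on few counts. It held 16, 8, 3 and 19 counts at 3, 9, 15 and 21 months, or 13.2, 6.76, 4.12 and 19.8 normalised counts. The 21 month library was above both middle ages, whereas the intervals of the ratios of 9 over 3 months (0.511, 95% interval 0.189 to 1.27) and of 15 over 3 months (0.312, 0.0582 to 1.09) included 1. The 21 month library exceeded that of 15 months 4.82-fold, with a 95% interval of 1.42 to 25.4, and that of 9 months 2.94-fold (1.23 to 7.75). Against 3 months the interval of the 21 month ratio, 1.502, included 1 (0.731 to 3.12). The chi-square test passed (adjusted p = 0.0331), and it was lost without the library of 9 months (0.0883), of 15 months (0.121) or of 21 months (0.209). The span of a non-coding gene, 9530052E02Rik, overlaps that of Irs2 on the other strand, and overlap of exons was not examined.

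The wider pathway was followed with lists of genes that do not include the 10 above. In the edgeR trend, 0 genes of any of these lists passed in either direction. Of 13 genes of growth hormone receptor signalling, 12 had counts in every library, and Socs1 was at 0 in all. Of these 12, 1 gene passed the chi-square test, against 25.3% of all genes tested. This was Jak2, the kinase of the receptor, named here after its values were seen, with 20, 5, 4 and 4 counts (adjusted p = 0.0111) and a 21 over 3 month ratio of 0.253 (95% interval 0.0629 to 0.755). The 3 most counted members were Prlr, the prolactin receptor (110, 113, 39 and 82 counts), Stat3, a cytokine-responsive transcription factor (51, 36, 32 and 33), and Cish, another feedback inhibitor of cytokine receptors (32, 18, 21 and 26). None of these 3 passed the chi-square test (adjusted p between 0.0551 and 0.483). The median log2 change over 18 months of the 6 genes fitted was -0.11, compared with -0.00 over all genes.

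Of 10 other genes for IGF ligands, receptors and binding proteins, 4 had a count in every library. Of these 4, 0 passed the chi-square test, against 25.3% of all genes tested. Igfbp7, a binding protein of low affinity, held 33, 44, 18 and 44 counts, Igf2r, the receptor that clears Igf2, held 47, 27, 31 and 24, and Igfbp5, which also forms the complex with the acid-labile subunit, held 7, 13, 4 and 9. Pappa, Pappa2 and Stc2, a pair of proteases of binding proteins and their inhibitor, were at 0 in every library, which allows up to 3 counts in each. For Igf1r the counts were 1, 0, 0 and 6.

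Insulin and IGF receptor signalling comprised 29 genes, all with counts in every library, of which 8 (Grb10, Grb14, Pik3ca, Akt1, Foxo3, Rictor, Hras1 and Map2k1) passed the chi-square test, a share close to the 25.3% of all genes. Among the most counted were Gsk3b, a kinase inhibited by the insulin signal (65, 52, 25 and 48 counts), and Map2k2, a kinase of the mitogen-activated branch (59, 54, 34 and 24). Neither passed (adjusted p of 0.392 and 0.103). Over the 26 genes fitted, the median log2 change over 18 months was 0.33. Of 11 genes that insulin or FOXO factors regulate in liver, 10 had counts in every library and were tested. Of these 10, 5 passed the chi-square test (Pck1, Pdk4, Srebf1, Fasn and Mttp), against 25.3% of all genes and 44.4% of those with at least 100 counts. Pck1, the gluconeogenic enzyme, held 877, 954, 485 and 703 counts, and its 21 over 3 month ratio was 1.01 (95% interval 0.917 to 1.12). Fasn, the fatty acid synthase, held 890, 765, 297 and 903, with ratios of 0.555 (0.485 to 0.633) at 15 months and 1.28 (1.17 to 1.41) at 21 months over 3 months. Mttp, which loads lipid onto lipoproteins, held 290, 163, 125 and 170, with a ratio of 0.741 (0.610 to 0.899) at 21 months. Fasn was thus lowest at 15 months and highest at 21 months, as were Irs2, Igf1 and Igfbp4. For Irs2 the 15 month value rested on 3 counts. The 95% intervals of its ratios over 3 months included 1 at 15 months (0.0582 to 1.09) and at 21 months (0.731 to 3.12). The median log2 ratio of all genes at 15 over 3 months was -0.16. Mttp was highest at 3 months.

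The male-biased genes listed as responsive to growth hormone, in either direction, had counts in every library (12 of 12). Of these, 9 passed the chi-square test, all but Cyp7b1, Slco1a1 and Bcl6. The share was 25.3% over all genes and 44.4% over those with at least 100 counts. At 21 months, 0 of the 12 were at least 1.5-fold higher (15.5% of the 4295 genes) and 4 lower (22.7%) than at 3 months, and the median log2 ratio was -0.24, compared with -0.07 over all 4295 genes. Cyp2d9, a male-specific steroid hydroxylase, held 5146, 4223, 2304 and 2962 counts, with a 21 over 3 month ratio of 0.728 (95% interval 0.695 to 0.762). Cyp7b1, an oxysterol hydroxylase, held 406, 432, 242 and 356, a ratio of 1.11 (0.959 to 1.28), and Nudt7, a peroxisomal hydrolase of coenzyme A, held 368, 449, 205 and 249, a ratio of 0.856 (0.726 to 1.01). These 3 genes, the most counted of the list, therefore did not share 1 course. The 4 lower genes, named after their values were seen, were Cyp4a12a (149, 87, 44 and 37 counts), Cyp4a12b (48, 65, 17 and 9), Elovl3 (295, 273, 69 and 125) and Bcl6 (28, 16, 19 and 14). The first 3 had an unadjusted p under 0.05 in the edgeR trend and adjusted p between 0.204 and 0.477. For Bcl6 the 21 over 3 month ratio of 0.632 had a 95% interval including 1 (0.308 to 1.24). Cyp4a12a and Cyp4a12b are near-identical copies whose reads the counting could split. Female-biased genes gave summed counts of 20, 19, 7 and 29 over 12 genes, 6 of them at 0 in every library, and Abcd2, Cyp2a4 and Fmo2 held most of them.

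**Figure D5:**
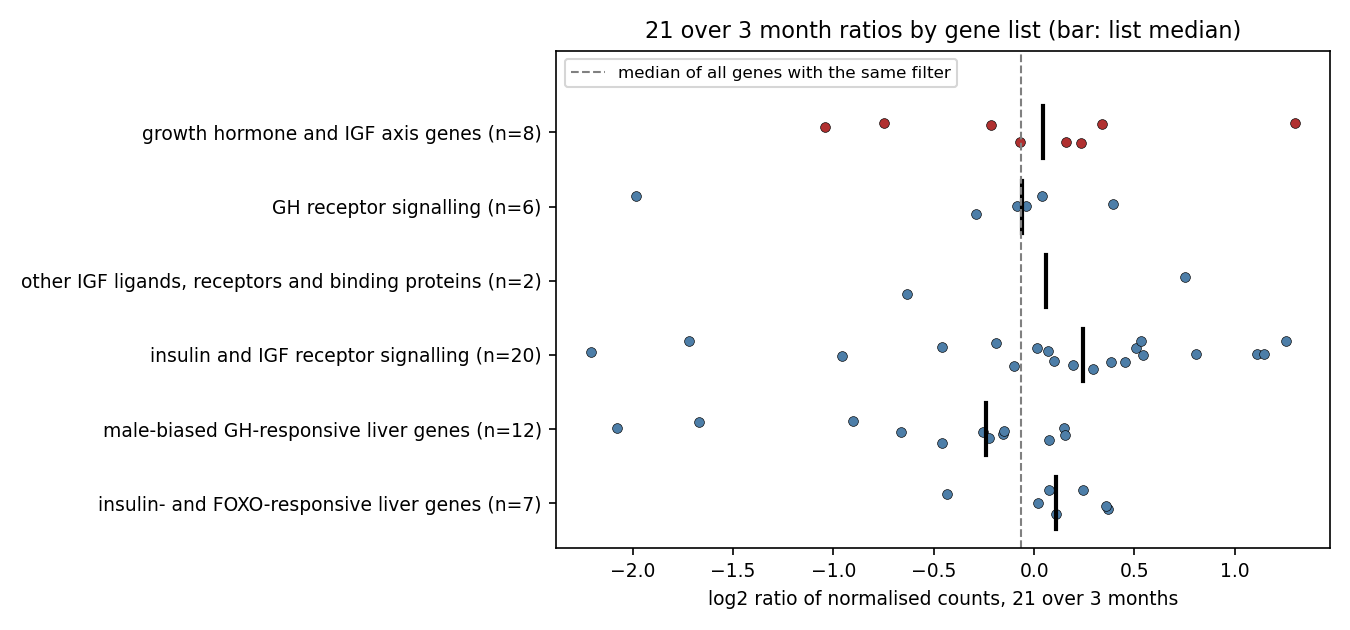
Log2 ratios of normalised counts, 21 over 3 months (horizontal axis), for the genes of each list with at least 20 counts in 1 library and a count in every library, 1 point per gene, with the list median as a black bar and the median of all 4295 genes (-0.07) as a dashed line. The median of the male-biased genes lies at -0.24 and that of the axis at 0.04.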

How the data were processed

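Mice, pooling and libraries are described above. According to the methods, uncapped RNA was digested, linkers were ligated to the former 5'-caps, and 35 bp reads from a SOLiD 5500xl were mapped to mm9 in the Genomic workbench of CLC. The submitters' processing notes name HTSeq, and its version, the annotation and the strand setting are not given in the sources used here. The authors deposited raw read counts per gene symbol, without normalisation. Records not assigned to a gene stayed out of all totals, and 72.2% to 76.7% of the records of a library were left out by the authors' counting as not unique.

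Samples were grouped by the age in their labels, with 1 library per age. Ratios of normalised counts were given exact Clopper-Pearson intervals (95%), not adjusted for the number of ratios. Intervals and floors cover counting error only, and no molecular identifiers are described. Counts were compared with Pearson's chi-square test and Benjamini-Hochberg adjustment (threshold 0.05), and age slopes with edgeR's quasi-likelihood test (TMM, filterByExpr), both tested on simulated data. Alternatives were other scales, filters, a pseudocount, DESeq2 and leaving out each library. Second matches of exons were sought with blastn 2.17.0 (at least 35 bases, 97% identity). Gene positions come from GENCODE M1. The software was Python 3.11.15, numpy 2.4.6, pandas 2.3.3, scipy 1.17.1, matplotlib 3.10.9, R 4.3.3, edgeR 4.0.16 and DESeq2 1.42.0.

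The 10 genes and all lists were chosen with earlier results of these data known. Named beside the 10 were the 3 genes with the highest summed count and up to 3 genes with an age trend of each list, the most counted marker of each cell type, and the 3 genes nearest in profile to the gene of highest variance among those of the 10 with at least 100 counts. Other names were given after their values were seen. The values of 1 gene that this rule names are not reported here.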

Additional observations from a re-analysis of the deposited data

How the results depend on the processing

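Only 1 library existed per age, so that no spread between replicates of an age was measured, and the p-values of the chi-square test and all intervals describe these 4 libraries. No paired analysis was possible because each age had a single pooled library without a replicate number in its labels. Genes with few counts (Stat5b, Socs2 and Irs2) could only show large differences. Scales for which the median log2 ratio over all genes moved by more than 0.1 were the main one (-0.16 at 15 months) and that of DESeq2 (-0.12 at 15 months), the 7 marker genes of the study (-0.20 at 9 months), the summed hepatocyte markers (-0.18 at 9 and 21 months) and the pseudocount of 1 (-0.36 at 15 and -0.18 at 21 months).

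The number of the 10 genes beyond counting noise (8) was 5 with the summed hepatocyte markers, a scale chosen after seeing the data (Igf1, Igfals, Igfbp1, Igfbp2 and Irs2), and ranged from 2 (without 21 months: Ghr and Igfbp2) to 7 (without 9 months) when a library was left out; without 15 months it was 4. The median variance of clr was 0.0789 with the summed hepatocyte markers. With a 2-fold limit, 0 genes were higher at 15 months and 1 lower at 21 months (Igfbp1). With at least 10 counts in every library, 1 gene was higher at 9 months (Stat5b). With a pseudocount of 1, at 15 months 0 were higher and 2 lower (Ghr and Insr). The genes with an age trend in edgeR (3 higher, 3 lower) were 0 lower with library totals, 5 higher without a filter, and 0 higher and 0 lower in DESeq2, and leaving out a library gave 5 to 12 higher and 2 to 11 lower. None of the 10 genes was among them in the fits that included it. Socs2 and Irs2 were each included in 7 of the 10 fits, and the filters on low counts left them out of the others. Directions turned for Igfbp4 relative to Igf1 (0.949 at 21 over 3 months, by Igf1 being higher there) and for edgeR slopes (log2 over 18 months), where leaving out a library gave -0.52 to 0.039 for Insr (positive without 3 months), -0.084 to 0.43 for Igf1, -0.9997 to 0.015 for Igfals and -0.083 to 0.17 for Igfbp4 (each turned without 21 months). Beyond the losses of a call given above, the 21 over 3 month ratio ranged over the scales from 0.413 to 0.502 for Igfbp1, 0.507 to 0.615 for Igfals, 1.08 to 1.21 for Igf1 and 2.20 to 2.54 for Stat5b. The interval of Igf1 at 15 over 3 months included 1 under 6 other scales or filters. Ratios over 3 months close to 1 also crossed it under some scales, filters or the pseudocount, namely those of Ghr, Igfbp1 and Igfbp4 at 9 months (up to 1.01 for Ghr, down to 0.910 and 0.951 for the others) and of Igfals (up to 1.04) and Stat5b (down to 0.977) at 15 months. The causes of these shifts were not tested.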
